A study of Mus musculus with 18 samples.

Results

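Notum, Dkk1, Lgr5, Rnf43, Znrf3, Axin2, Nkd1, Lef1, Tcf7 and Sp5 are 10 genes that canonical Wnt signalling is known to induce and that act back on it. They were taken by name from the 55401 Ensembl genes of a mouse RNA-seq series on chemical reprogramming, and each matched 1 identifier. The series held 9 groups with 2 libraries each, 18 in all. D0 was mouse embryonic fibroblasts of early passage from 129XOG2 embryos (E13.5), grown in serum medium. D2, D4, D6, D8, D10 and D12 were the same kind of fibroblasts sampled every 2 days after a change to reprogramming medium, a bulk culture at each time. The composition of that medium, and so whether it held a GSK3 inhibitor, is not given in the sources used here. The riPSC group was induced pluripotent stem cells of the same 129XOG2 origin, and the mESC group was the R1 embryonic stem cell line. Both pluripotent groups grew on feeder cells in serum-free medium with mLIF, 3 µM CHIR99021 (a GSK3 inhibitor, which stabilises beta-catenin) and 0.2 µM PD0325901 (a MEK inhibitor), so a Wnt-activating compound was present in both. OG2 mice carry a GFP reporter under Pou5f1 control. The labels do not say if a group's 2 libraries are separate cultures. The p-values speak only to the spread of these libraries, which may be technical.

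In canonical Wnt signalling, a Wnt ligand bound to Frizzled and LRP receptors stops the destruction complex, in which GSK3 marks beta-catenin for breakdown. Beta-catenin then joins TCF/LEF factors on DNA and switches on target genes, many of which limit the pathway. Notum is a secreted enzyme that removes the lipid from Wnt ligands, Dkk1 is a secreted blocker of LRP5 and LRP6, and Rnf43 and Znrf3 are membrane ubiquitin ligases that remove Frizzled receptors. Lgr5 is a receptor for R-spondins, which counter those ligases. Axin2 is a scaffold of the destruction complex and Nkd1 binds Dishevelled. Lef1 and Tcf7 are TCF/LEF factors themselves, and Sp5 is a zinc finger repressor downstream of Wnt. In mouse embryonic stem cells, inhibition of GSK3 is known to support self-renewal, in part by lifting repression by Tcf7l1.

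The 250 bases upstream of an annotated start were available for 7 of the 10 genes in RefSeq windows on GRCm38.p6, 12 windows in all. CTTTGA, a form of the core of the TCF/LEF recognition sequence, was searched on both strands as the only motif. Other forms were not searched and are not marked. On the other strand a match reads TCAAAG. Of 32851 mouse windows of this length, 13.8% held a match and 1.37% held at least 2. Sp5 and Dkk1, both listed at 0 in D0 and highest at D4, had 2 matches each, and Axin2, a common reporter of Wnt signalling, had 0. These 3 were chosen after the search, and the matches are a description of these letters. Matches are in capitals, and each line reads 5′ to 3′ on the strand of the gene. The Sp5 window is chr2:70474673-70474922 on the plus strand, the Dkk1 window is chr19:30549497-30549746 on the minus strand, and the Axin2 window is chr11:108920099-108920348 on the plus strand.
Sp5: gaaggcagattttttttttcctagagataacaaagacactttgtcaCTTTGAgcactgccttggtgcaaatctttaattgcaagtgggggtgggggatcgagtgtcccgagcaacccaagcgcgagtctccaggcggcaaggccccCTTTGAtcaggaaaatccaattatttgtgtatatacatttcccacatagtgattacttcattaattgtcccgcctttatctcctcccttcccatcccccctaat
Dkk1: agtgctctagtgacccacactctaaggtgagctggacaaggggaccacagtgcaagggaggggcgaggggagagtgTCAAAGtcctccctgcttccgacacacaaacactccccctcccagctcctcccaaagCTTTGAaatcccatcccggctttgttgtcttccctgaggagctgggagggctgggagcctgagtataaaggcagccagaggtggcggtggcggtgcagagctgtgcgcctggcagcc
Axin2: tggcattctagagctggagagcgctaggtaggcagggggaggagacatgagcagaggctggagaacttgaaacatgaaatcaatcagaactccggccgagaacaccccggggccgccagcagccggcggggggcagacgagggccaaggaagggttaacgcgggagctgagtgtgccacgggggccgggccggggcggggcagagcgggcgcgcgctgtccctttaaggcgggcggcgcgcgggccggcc
In the Sp5 window 198 and 98 bases lay between a match and the start, and both matches were on the plus strand. In the Dkk1 window the distances were 168 bases on the minus strand of the window and 111 bases on its plus strand. The Dkk1 coordinates from GENCODE M21 start at 30549665, inside this RefSeq window. On those coordinates the CTTTGA match lies within the gene. One further window held 2 matches, at an internal start of Lef1. The windows of Nkd1, Tcf7, Rnf43 and the other starts of Lef1 held 0.

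Expression was deposited as FPKM, a level scaled by transcript length and by the mapped fragments of each library. The D2 columns stood apart in their arithmetic. Replicate 2 of D2 was never below 0.2 times replicate 1 in any gene, with a tolerance of 1e-06 FPKM, whereas 976 to 2971 genes were below it in each of the other 8 groups. In 2016 genes replicate 2 was equal to that multiple, no gene was above 0 in replicate 1 and at 0 in replicate 2, and only these 2 columns held values with over 6 decimals. The D2 columns are therefore linked and are not 2 independent measurements: 0.2 times replicate 1 makes up 30.4% to 54.8% of each of the 10 genes in replicate 2. All 10 were higher in replicate 1 of D2 than in replicate 2, by a factor of 1.52 to 2.74, and all 10 were higher in replicate 2 of D4 than in replicate 1. Of all genes tested, 56.8% were higher in replicate 1 of D2, and 27.0% were higher in replicate 1 of D4. Over all genes tested, the median absolute log2 difference between replicates came to 0.28 (D0), 0.243 (D2) and 0.184 (D4), and to between 0.0897 and 0.141 for the rest. The share of FPKM from mitochondrial genes was 0.437% and 1.89% in D0 and 6.42% to 62.3% in the other groups. Fold changes against D0 also grew with transcript length: the median log2 fold change was 0.74 at D2 for genes with over 8000 exonic bases and 0.00 for those of 1000 to 2000.

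**Figure D1:**
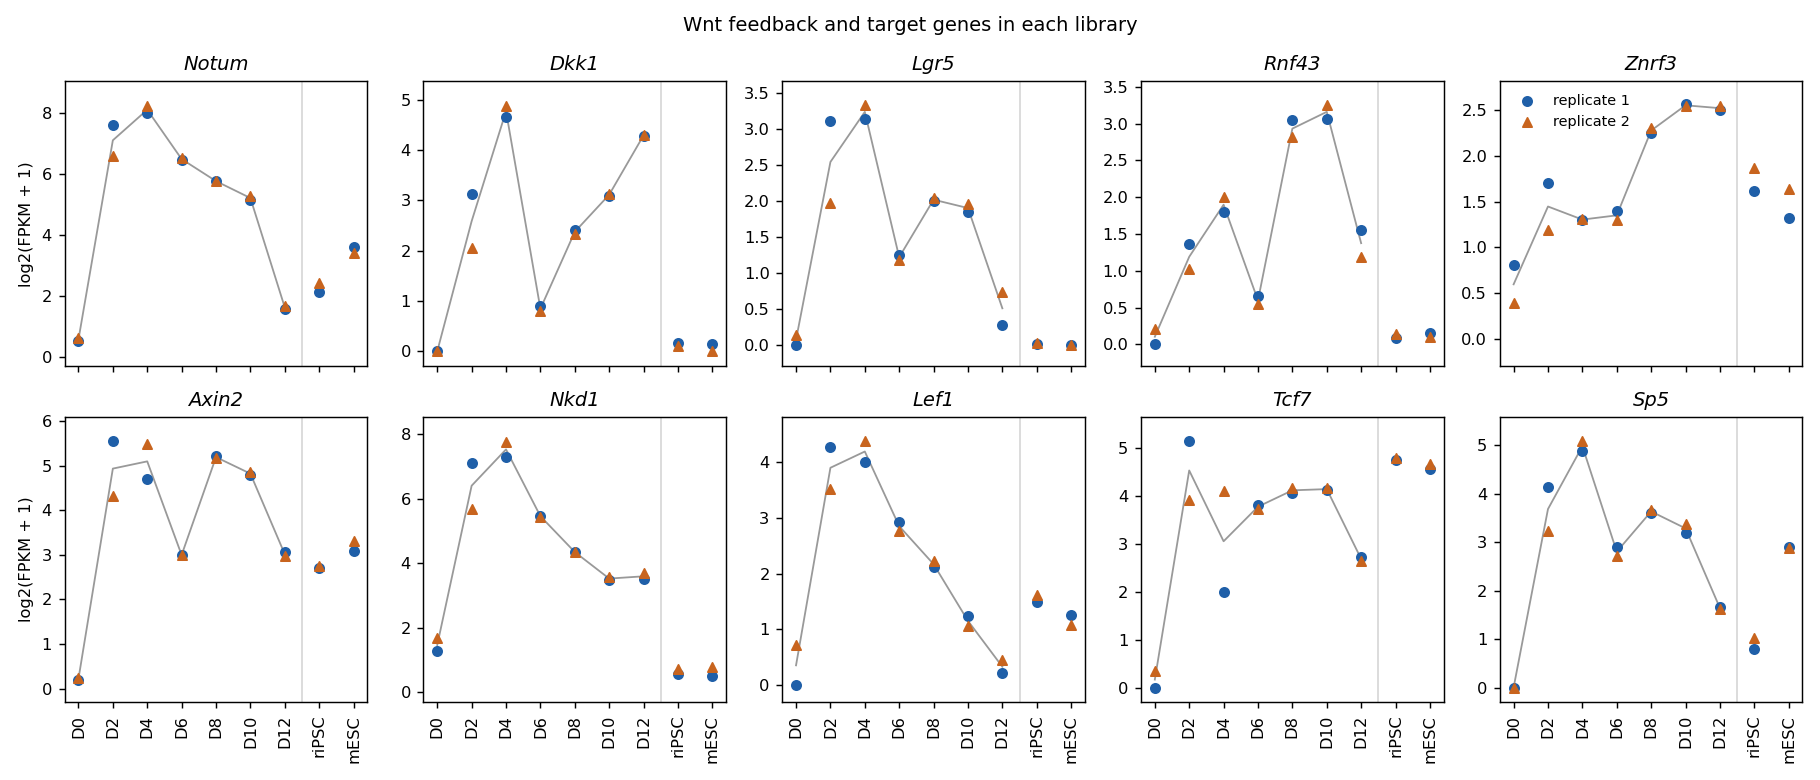
Each panel shows 1 gene, with log2(FPKM + 1) on the vertical axis and the 9 groups on the horizontal axis; circles are replicate 1, triangles replicate 2, and the grey line joins the means of D0 to D12. Notum, Nkd1, Lef1, Sp5, Dkk1 and Lgr5 have their highest mean at D4, Rnf43 and Znrf3 at D10, Axin2 at D8 and Tcf7 in riPSC.

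Between D0 and D2, 9 of the 10 genes rose, from both sides of the membrane: the secreted Notum and Dkk1, the receptor Lgr5 and ligase Rnf43, the intracellular Axin2 and Nkd1, and the nuclear Lef1, Tcf7 and Sp5. Calls needed both an adjusted p under 0.05 (limma on log2(FPKM + 1), Benjamini-Hochberg over 16439 genes) and a fold of 2 or more on the FPKM + 1 scale. In D2 against D0, 9 members were called higher and 0 lower, where 19.5% of all genes tested were called higher and 4.63% lower. Members had a median log2 fold change of 3.62, and all genes tested one of 0.24. The exception was Znrf3, with a log2 fold change of 0.85 ± 0.18 (SE, adjusted p = 0.00156 by limma), under the fold limit. The 9 calls rest on a spread shared over all groups: in a fit of the 4 D2 and D0 libraries alone, 0 members passed, as did only 64 and 24 of all genes, higher and lower. With the mean of the D2 columns counted as 1 sample, 9 were called. Myeloid markers summed to 6.56 and 6.05 FPKM in D2, against 73.5 and 70.6 in D0 (4 of 5 tested fell), and striated muscle markers to 6.15 and 10.6, against 143 and 136 (4 of 4 fell); their part in the result was not tested. In bulk samples, fewer cells of a type and less RNA per cell cannot be told apart.

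From D2 to D4, 3 of the genes rose further. In D4 against D2, Dkk1, Sp5 and Nkd1 were called higher and Tcf7 lower, so 3 and 1 of the 10. Of all genes, 5.66% and 4.48% were called in those directions, so the 1 called lower was near the background. The members' median log2 fold change was 0.70, and that of all genes 0.04. Notum lay just under the fold limit, at 1.00 ± 0.24 (adjusted p = 0.00725 by limma). D2 and D4 were, after D0, the groups with the widest differences between replicates. In a fit of the D4 and D2 libraries alone all 4 calls were lost, with an adjusted p of 0.113 for Dkk1. Without D2 replicate 2 the Nkd1 and Sp5 calls were lost, at log2 fold changes of 0.41 and 0.84, without D4 replicate 2 the Nkd1 call was lost, at 0.89, and without D2 replicate 1 the count of higher members was 5. The Tcf7 call, on overlapping libraries, was lost without D4 replicate 1 (-0.42) and without D2 replicate 1 (-0.87). With the D2 columns as 1 sample, 2 were called higher and 0 lower. Extraembryonic endoderm markers summed to 42.8 and 66.1 FPKM in D4, against 6.06 and 3.40 in D2 (4 of 5 rose). The mitochondrial share was 6.42% and 12.4% in D4, against 34.1% and 15.9% in D2, and the part of these values in the result was not tested.

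From D4 to D6 the genes fell together. In D6 against D4, 8 of the 10 were called lower and 0 higher, where 6.86% of all genes were called lower and 11.6% higher. Their median log2 fold change was -1.82, and that of all genes 0.07. Dkk1 fell most, by 3.93 ± 0.24 (SE) on the log2 scale (adjusted p = 1.35e-07 by limma), and Rnf43 least of the 8, by 1.30 ± 0.16 (adjusted p = 2.96e-05). Tcf7 (0.72 ± 0.51) and Znrf3 (0.05 ± 0.18) were not called, and their libraries overlapped between D6 and D4. The 8 calls also held in a fit of the D6 and D4 libraries alone and without any 1 of those libraries. With a pseudocount of 5 the calls of Lef1 (-0.99) and Rnf43 (-0.49) fell under the fold limit, and with one of 0.1 the Lef1 call was lost (adjusted p = 0.111 by limma). Epithelial markers summed to 51.2 and 54.1 FPKM in D6, against 16.6 and 14.8 in D4 (4 of 4 rose), and pluripotent markers to 32.4 and 29.3, against 4.27 and 5.95 (3 of 8 rose). Fibroblast markers summed to 2481 and 2467 FPKM in D6, against 1861 and 2369 in D4 (2 of 8 rose, none fell). The mitochondrial share was 44.2% and 35.4% in D6, against 6.42% and 12.4% in D4. The part of these values in the falls was not tested.

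From D6 to D8 there was a second rise, in fewer genes. In D8 against D6, Axin2, Rnf43 and Dkk1 were called higher and Nkd1 lower, so 3 and 1 of the 10. Of all genes, 15.1% and 11.3% were called in those directions, so the 1 called lower was near the background. Across the members the median log2 fold change was 0.82, and across all genes 0.08. Axin2 rose by 2.19 ± 0.31 (adjusted p = 6.83e-05 by limma), Rnf43 by 2.33 ± 0.16 (adjusted p = 9.21e-08) and Dkk1 by 1.53 ± 0.24 (adjusted p = 0.000151). Nkd1 fell by 1.11 ± 0.34 (adjusted p = 0.0139 by limma). That call was lost without any 1 of the 4 libraries, although the value stayed at -1.13 to -1.09. It held in a fit of the D8 and D6 libraries alone. At this step the cell type markers changed widely. Epithelial markers summed to 770 and 764 FPKM in D8, against 51.2 and 54.1 in D6 (4 of 4 rose), and extraembryonic endoderm markers to 312 and 311, against 36.3 and 36.5 (5 of 5 rose), and 6 of 8 pluripotent markers rose. Fibroblast markers summed to 473 and 465 FPKM in D8, against 2481 and 2467 in D6 (7 of 8 fell). The part of these changes in the member values was not tested.

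In D10 against D8, Lef1 alone was called, lower by 1.02 ± 0.25 (adjusted p = 0.022 by limma), with 2.43% of all genes called lower and 0.426% higher. That call was lost without any 1 of the 4 libraries, at log2 fold changes of -1.1 to -0.93. It held in a fit of the D10 and D8 libraries alone. In D12 against D10, 6 members fell and Dkk1 rose, where 4.68% of all genes were called lower and 6.01% higher. The share of members called higher was thus near the background. The median log2 fold change was -1.42 for the members and -0.06 for all genes. Pluripotent markers summed to 1498 and 1533 FPKM in D12, against 567 and 571 in D10 (4 of 8 rose), fibroblast markers to 719 and 737, against 369 and 381 (4 of 8 rose, 1 fell), and the mitochondrial share was 62.3% and 62.1%, against 52.3% and 51.4%. With mitochondrial genes left out of the scaling, 6 members were still lower and the Dkk1 call was lost, at 0.92.

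**Figure D2:**
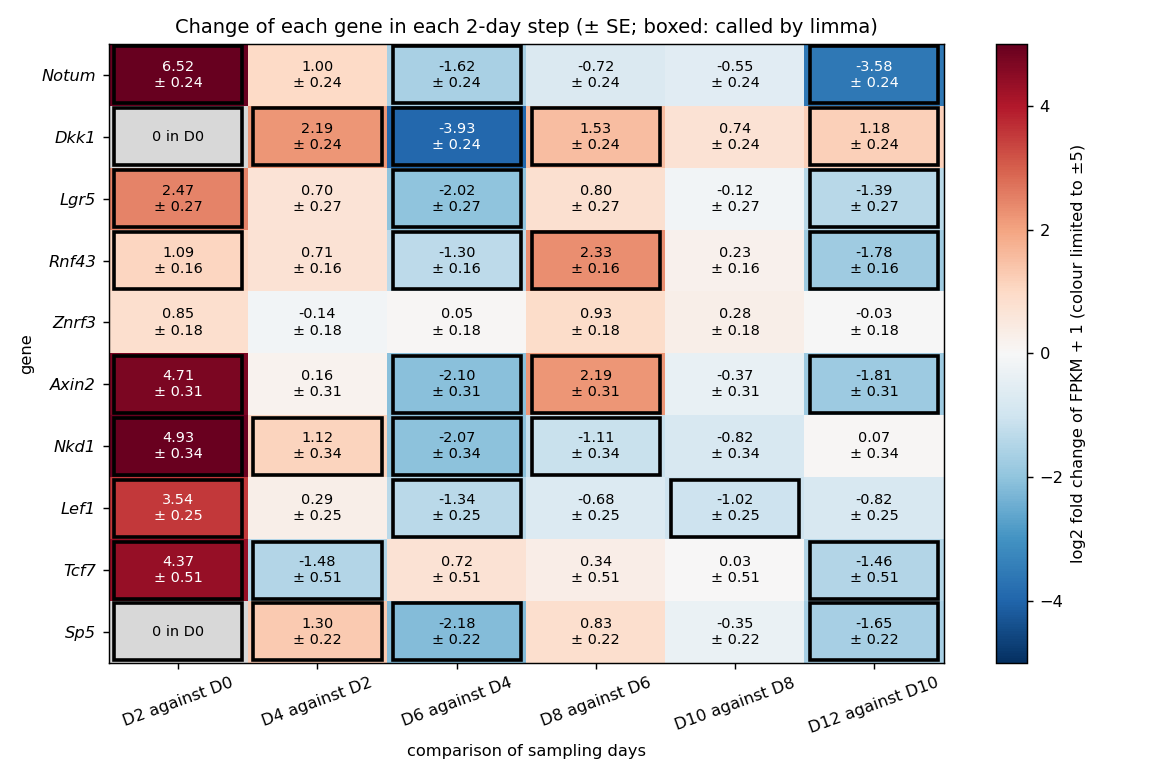
The colour and the numbers give the log2 fold change on the FPKM + 1 scale (± SE) of each gene (rows) in each comparison of successive sampling days (columns); boxes mark calls by limma, and grey marks genes listed at 0 in both D0 libraries. The D6 against D4 column is blue in 8 of 10 rows, and the D2 against D0 column is boxed in all rows but Znrf3.

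Among the secreted feedback proteins, Notum had the highest level of the 10 genes, on the length-scaled FPKM. Notum (chr11:120653788-120661175, minus strand, mm10) had 0.432 and 0.564 FPKM in D0, 193 and 96.1 in D2, 252 and 297 in D4, 86.1 and 91.1 in D6, 53.2 and 53.4 in D8, 34.4 and 37.7 in D10, and 2.02 and 2.17 in D12. It stood at 3.36 and 4.35 FPKM in riPSC and 11.2 and 9.54 in mESC. No 2 neighbouring groups in this order of levels overlapped, and every library of the course lay above both D0 libraries. Notum rose by 6.52 ± 0.24 on the log2 scale in D2 against D0 (adjusted p = 1.84e-09 by limma). It fell by 3.58 ± 0.24 in D12 against D10 (adjusted p = 2.33e-07), to a level under both pluripotent groups. Notumos, an annotated antisense gene on the opposite strand of Notum, had 0.168 and 0.0462 FPKM in D0, 10.6 and 4.62 in D2, 14.7 and 17.6 in D4 and 2.66 and 2.61 in D6. Strand use in the counting is not given in the sources used here, so reads of Notum and Notumos cannot be told apart.

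Dkk1 had 2 separate highs. Dkk1 (chr19:30545863-30549665, minus strand) was listed at 0 in both D0 libraries, and had 7.67 and 3.15 FPKM in D2, 24.3 and 28.5 in D4, 0.861 and 0.734 in D6, 4.34 and 4.03 in D8, 7.50 and 7.78 in D10 and 18.5 and 18.6 in D12. In riPSC it was at 0.115 and 0.0824 FPKM, and in mESC at 0.113 and 0. The D4 and D12 libraries did not overlap, and both lay above all other libraries. In D4 against D2 it rose by 2.19 ± 0.24 (adjusted p = 3.05e-05 by limma), and in D12 against D10 by 1.18 ± 0.24 (adjusted p = 0.00222). The D12 against D10 call was lost with a pseudocount of 5 (0.9) and with mitochondrial genes left out of the scaling (0.92). Dkk1 was the member with the largest difference between D12 and riPSC, higher in D12 by 4.15 ± 0.24 on the log2 scale (adjusted p = 1.1e-08 by limma). Over the D12 step, Dkk1 and Notum moved in opposite directions, although both are secreted inhibitors.

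At the receptors, Lgr5 followed an early course. Lgr5 (chr10:115450311-115587780, minus strand) had 0 and 0.101 FPKM in D0, 7.67 and 2.91 in D2, 7.82 and 9.07 in D4, 1.38 and 1.27 in D6, 2.99 and 3.10 in D8, 2.61 and 2.86 in D10 and 0.212 and 0.667 in D12. It was at 0.00876 and 0.0170 FPKM in riPSC and listed at 0 in both mESC libraries. Lgr5 rose by 2.47 ± 0.27 in D2 against D0 (adjusted p = 1.59e-05 by limma), fell by 2.02 ± 0.27 in D6 against D4 (adjusted p = 7.02e-05) and fell by 1.39 ± 0.27 in D12 against D10 (adjusted p = 0.00164). Its exons total 10264 bases, the longest of the 10, and with the length trend removed its D6 against D0 call (1.15) was lost, at 0.15 (adjusted p = 0.537).

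The ligases Rnf43 and Znrf3 had their highest levels late. Rnf43 (chr11:87662722-87735539, plus strand) had 0 and 0.153 FPKM in D0, 1.56 and 1.03 in D2, 2.47 and 3.00 in D4, 0.569 and 0.457 in D6, 7.25 and 6.06 in D8, 7.37 and 8.53 in D10 and 1.95 and 1.28 in D12. In riPSC it had 0.0659 and 0.103 FPKM, and in mESC 0.114 and 0.0687, and these libraries overlapped. The D8 and D10 libraries were above all others. Its rise at D2 (1.09 ± 0.16, adjusted p = 0.000123 by limma) was lost without D0 replicate 1 (0.98), without D2 replicate 1 (0.92) and with the length trend removed (0.52). Its fall in D12 against D10 was 1.78 ± 0.16 (adjusted p = 2.72e-06).

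Znrf3 (chr11:5276324-5444847, minus strand) had 0.748 and 0.309 FPKM in D0, 2.25 and 1.29 in D2, 1.47 and 1.47 in D4, 1.65 and 1.46 in D6, 3.76 and 3.94 in D8, 4.91 and 4.84 in D10 and 4.65 and 4.84 in D12. It had 2.08 and 2.66 FPKM in riPSC and 1.50 and 2.11 in mESC. Only the D8, D10 and D12 libraries lay above every other group, and D10 and D12 overlapped. Znrf3 was called in none of the 6 steps, the largest being 0.93 ± 0.18 in D8 against D6 (adjusted p = 0.000699 by limma), under the fold limit. In D12 against D10, where Rnf43 fell, Znrf3 differed by -0.03 ± 0.18 (adjusted p = 0.931).

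Of the intracellular regulators, Axin2 had a low at D6 between highs. Axin2 (chr11:108920349-108950783, plus strand) had 0.151 and 0.180 FPKM in D0, 45.6 and 19.0 in D2, 25.0 and 43.9 in D4, 6.99 and 6.97 in D6, 36.1 and 34.9 in D8, 26.6 and 28.0 in D10 and 7.30 and 6.86 in D12. It had 5.51 and 5.73 FPKM in riPSC and 7.48 and 8.87 in mESC. The libraries of D8, D4, D2 and D10 overlapped in that order, and D6 and D12 overlapped with each other. Axin2 rose by 4.71 ± 0.31 in D2 against D0 (adjusted p = 2.32e-07 by limma), fell in D6 against D4 (adjusted p = 0.000155), and fell by 1.81 ± 0.31 in D12 against D10 (adjusted p = 0.000697). Its low at D6 was still 2.78 ± 0.31 above D0 on the log2 scale (adjusted p = 6.83e-06).

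Nkd1 had a single high, at D4. Nkd1 (chr8:88521354-88594884, plus strand) had 1.41 and 2.18 FPKM in D0, 138 and 50.3 in D2, 155 and 216 in D4, 43.4 and 42.3 in D6, 19.2 and 19.5 in D8, 10.13 and 10.89 in D10 and 10.3 and 11.9 in D12. It had 0.482 and 0.643 FPKM in riPSC and 0.415 and 0.732 in mESC, below both D0 libraries. Nkd1 rose by 4.93 ± 0.34 in D2 against D0 (adjusted p = 3.2e-07 by limma) and fell by 2.07 ± 0.34 in D6 against D4 (adjusted p = 0.000327). The D10 and D12 libraries overlapped, and at D12 the gene was higher than in riPSC by 2.95 ± 0.34 (adjusted p = 6.96e-06).

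Among the nuclear factors, Lef1 was early and Tcf7 lasted. Lef1 (chr3:131110471-131224356, plus strand) had 0 and 0.642 FPKM in D0, 18.3 and 10.5 in D2, 15.0 and 19.7 in D4, 6.63 and 5.81 in D6, 3.34 and 3.66 in D8, 1.37 and 1.09 in D10 and 0.161 and 0.365 in D12. The D2 and D4 libraries overlapped, and D12 overlapped with D0. In riPSC Lef1 had 1.81 and 2.05 FPKM, and in mESC 1.38 and 1.12. Lef1 rose by 3.54 ± 0.25 in D2 against D0 (adjusted p = 4.36e-07 by limma) and fell by 1.34 ± 0.25 in D6 against D4 (adjusted p = 0.000891), the call that a pseudocount of 0.1 or 5 ended.

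Tcf7 (chr11:52252371-52283014, minus strand) had 0 and 0.265 FPKM in D0, 34.5 and 14.2 in D2, 3.00 and 16.4 in D4, 13.2 and 12.4 in D6, 15.9 and 17.0 in D8, 16.6 and 16.9 in D10 and 5.63 and 5.29 in D12. It had 26.1 and 27.0 FPKM in riPSC and 22.9 and 24.6 in mESC, and the riPSC, D2 and mESC libraries overlapped in that order. Tcf7 rose by 4.37 ± 0.51 in D2 against D0 (adjusted p = 2.71e-05 by limma). Replicate 1 of D4 was 0.183 times replicate 2, the widest replicate gap of the 10 genes there, and its fall in D4 against D2 (1.48 ± 0.51, adjusted p = 0.0445) rests on overlapping libraries and was lost without D4 replicate 1 (-0.42) or D2 replicate 1 (-0.87). Its fall in D12 against D10 was 1.46 ± 0.51 (adjusted p = 0.0428 by limma), and D12 and D10 did not overlap. The call was lost without any 1 of the 4 libraries, although the value stayed at -1.5 to -1.42. It held in a fit of the D12 and D10 libraries alone. The SE of 0.51 is shared over all groups, D2 and D4 among them. Lymphocytes also express Lef1 and Tcf7. In D2, lymphoid markers summed to 0.0288 and 0.077 FPKM over 6 genes, with Cd3e, Cd3d, Cd3g and Cd2 listed at 0, and in riPSC to 4.71 and 4.78 FPKM. The part of such cells in the Lef1 and Tcf7 values was not tested.

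Sp5 had an early high and a later, lower one. Sp5 (chr2:70474923-70477729, plus strand) was listed at 0 in both D0 libraries and had 16.7 and 8.36 FPKM in D2, 28.4 and 32.9 in D4, 6.44 and 5.56 in D6, 11.1 and 11.7 in D8, 8.12 and 9.43 in D10 and 2.17 and 2.07 in D12. In riPSC it had 0.737 and 1.04 FPKM, and in mESC 6.47 and 6.39. D4 lay above all other groups, while D2 overlapped with D8. Sp5 rose by 1.30 ± 0.22 in D4 against D2 (adjusted p = 0.000842 by limma), fell by 2.18 ± 0.22 in D6 against D4 (adjusted p = 7.4e-06) and fell by 1.65 ± 0.22 in D12 against D10 (adjusted p = 0.0001). The difference between D8 and D6 (0.83 ± 0.22, adjusted p = 0.00625) was under the fold limit.

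Set in their family, Lef1 and Tcf7 shared the TCF/LEF RNA unequally across groups. Of the summed FPKM of Lef1, Tcf7, Tcf7l1 and Tcf7l2, Lef1 made up 31.1% and 36.7% in D2, 61.0% and 41.8% in D4, with 22.5% and 22.2% at D6. Tcf7l2, the family member best known from gut epithelium, made up 10.5% and 9.35% in D6, 45.6% and 47.5% in D8 and 53.6% and 52.5% in D12. The summed FPKM of the family was 39.8 and 42.8 in D10 and 18.5 and 18.1 in D12. Tcf7l2 itself had 19.2 and 22.1 FPKM in D8, 19.0 and 21.3 in D10 and 9.9 and 9.51 in D12. It rose in D8 against D6 by 2.53 ± 0.15 on the log2 scale (adjusted p = 2.45e-08 by limma). In riPSC, Tcf7 made up 56.6% and 53.3% and Tcf7l1, a repressor in embryonic stem cells, 35.5% and 38.3%; in mESC these were 48.1% and 49.3%, and 46.5% and 45.5%. Tcf7l1 itself differed by -0.32 ± 0.26 between riPSC and mESC (adjusted p = 0.566).

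**Figure D3:**
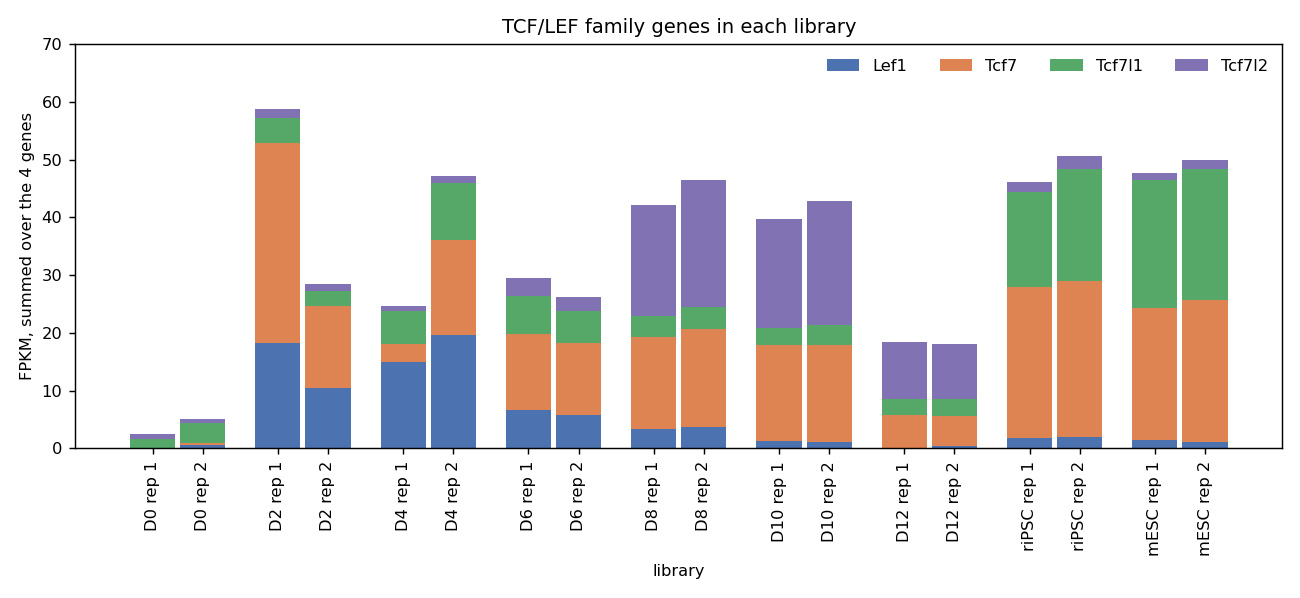
Stacked bars give the FPKM of Lef1, Tcf7, Tcf7l1 and Tcf7l2 in each of the 18 libraries. The Lef1 part is tallest at D2 and D4, Tcf7l2 appears as a large part from D8 to D12, and Tcf7 with Tcf7l1 fills most of the riPSC and mESC bars.

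Against the pluripotent end point, the early course was high and the late course mixed. In D2 against riPSC, 8 members were called higher and 0 lower, where 15.8% of all genes were called higher and 28% lower. The median log2 fold change was 2.40 for the members, against -0.29 for all genes. Nkd1 was the largest, at 5.76 ± 0.34 (adjusted p = 1.22e-08 by limma), while Tcf7 (-0.24 ± 0.51) and Znrf3 (-0.30 ± 0.18) overlapped between the groups. The Rnf43 call was lost without D2 replicate 1, at 0.90, and with mitochondrial genes left out of the scaling, at 0.98. In the same comparison 8 of 8 pluripotent markers were lower, and fibroblast markers summed to 1248 and 880 FPKM in D2, against 80.9 and 86.0 in riPSC (7 of 8 higher). In D12 against riPSC, Dkk1, Nkd1 and Rnf43 were higher and Tcf7 and Lef1 lower, so 3 and 2 of the 10, with 16.7% and 19.8% of all genes called in those directions, so the share of members called lower was near the background. Tcf7 was lower in D12 by 2.09 ± 0.51 on the log2 scale (adjusted p = 0.00307 by limma). Extraembryonic endoderm markers summed to 326 and 351 FPKM in D12, against 2.25 and 2.81 in riPSC (5 of 5 higher), and 6 of 8 fibroblast markers were higher and 6 of 8 pluripotent markers lower. The part of the marker differences in these values was not tested.

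In D6 against D0, all members but Dkk1, Rnf43 and Znrf3 were called higher, 7 of 10 with 0 lower, where 32.8% of all genes were called higher and 8.79% lower. The median log2 fold change was 2.64 for the members and 0.50 for all genes. Extraembryonic endoderm markers were higher in 5 of 5 and fibroblast markers in 5 of 8, and striated muscle markers lower in 4 of 4; their part was not tested. In riPSC against D0, Tcf7, Axin2, Notum, Lef1 and Znrf3 were called higher and 0 lower, where 40.1% and 13% of all genes were called in those directions, so the share of members called higher was near the background. In that comparison 8 of 8 pluripotent markers were higher and 8 of 8 fibroblast markers lower. Tcf7 was higher by 4.61 ± 0.51 (adjusted p = 3.34e-06 by limma), Axin2 by 2.51 ± 0.31 (adjusted p = 9.31e-06) and Notum by 1.69 ± 0.24 (adjusted p = 2.95e-05). The calls of Lef1 (1.19) and Znrf3 (1.15) were lost with the length trend removed, at 0.02 and 0.01. The Lef1 call was also lost without D0 replicate 1, at 0.84, and the Znrf3 call without D0 replicate 2, at 0.94.

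In the same medium, the pluripotent groups differed in 2 members. In riPSC against mESC, Sp5 and Notum were called lower and 0 higher, where 1.2% of all genes were called lower and 1.84% higher. Sp5 had 0.737 and 1.04 FPKM in riPSC, against 6.47 and 6.39 in mESC, a log2 fold change of -1.98 ± 0.22 (adjusted p = 7.21e-05 by limma). Notum had 3.36 and 4.35 FPKM in riPSC, against 11.2 and 9.54 in mESC, a log2 fold change of -1.23 ± 0.24 (adjusted p = 0.00449); this call was lost without riPSC replicate 1, at -1.08 (adjusted p = 0.0541). Axin2 differed by -0.47 ± 0.31 and Tcf7 by 0.16 ± 0.51, neither called, and Nkd1, Dkk1, Rnf43 and Znrf3 overlapped. Fibroblast and feeder markers summed to 80.9 and 86.0 FPKM in riPSC, against 149 and 162 in mESC (1 of 8 fell). D0 fibroblasts, at 736 and 1173 for those markers, had Sp5 at 0 and Notum at 0.432 and 0.564 FPKM. The D4 libraries, at 1861 and 2369, had Sp5 at 28.4 and 32.9 and Notum at 252 and 297 FPKM. No group was of feeder cells alone, and the part of feeder cells in the Sp5 and Notum differences was not tested.

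Other Wnt pathway genes were read from 5 lists of 91 genes. Of 15 tested ligands and ligand secretion genes, 8 rose and 0 fell in D2 against D0, with a median log2 fold change of 1.07, where 19.5% and 4.63% of all genes were called in those directions and their median was 0.24. Wnt7b was listed at 0 in D0, had 28.0 and 17.5 FPKM in D2 and 0.441 and 0.383 in D4, where it fell by 4.03 ± 0.19 on the log2 scale (adjusted p = 4.13e-08 by limma). Wnt4, a ligand of kidney and gonad development, had 61.8 and 54.6 FPKM in D2, 169 and 147 in D4 and 28.1 and 27.6 in D6. Like 8 of the members it fell in D6 against D4, by 2.46 ± 0.14 (adjusted p = 7.11e-08 by limma). The list was split at that step: 4 of the 15 fell and 3 rose, with 6.86% and 11.6% of all genes called in those directions. Its median log2 fold change was 0.07, and that of all genes 0.07. Wnt3 was low until D10 and had 3.33 and 4.36 FPKM in D12, against 0.270 and 0.122 in D10.

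Secreted modulators rose early and fell later. Of 12 tested, 7 rose in D2 against D0, 5 rose in D4 against D2, 5 fell and 2 rose in D6 against D4, and 8 fell in D8 against D6, with no calls in the other direction except in D6 against D4. All genes tested were called in the same directions at 19.5% (higher at D2), 5.66% (higher at D4), 6.86% and 11.6% (lower and higher at D6) and 11.3% (lower at D8), so the 2 that rose at D6 were near the background. The Wnt inhibitors Wif1 and Sfrp5 peaked with Dkk1: Wif1 had 27.1 and 8.28 FPKM in D2, 69.9 and 99.2 in D4 and 8.41 and 8.44 in D6. Sfrp5 had 2.43 and 1.53 FPKM in D6, against 49.7 and 51.1 in D4, a fall of 4.13 ± 0.22 on the log2 scale (adjusted p = 4.78e-08 by limma). Rspo4, an R-spondin and so a possible ligand of Lgr5, went the other way at D6, with 51.0 and 51.4 FPKM, against 9.29 and 10.9 in D4. It fell in D8 by 2.93 ± 0.37 (adjusted p = 2.71e-05).

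**Figure D4:**
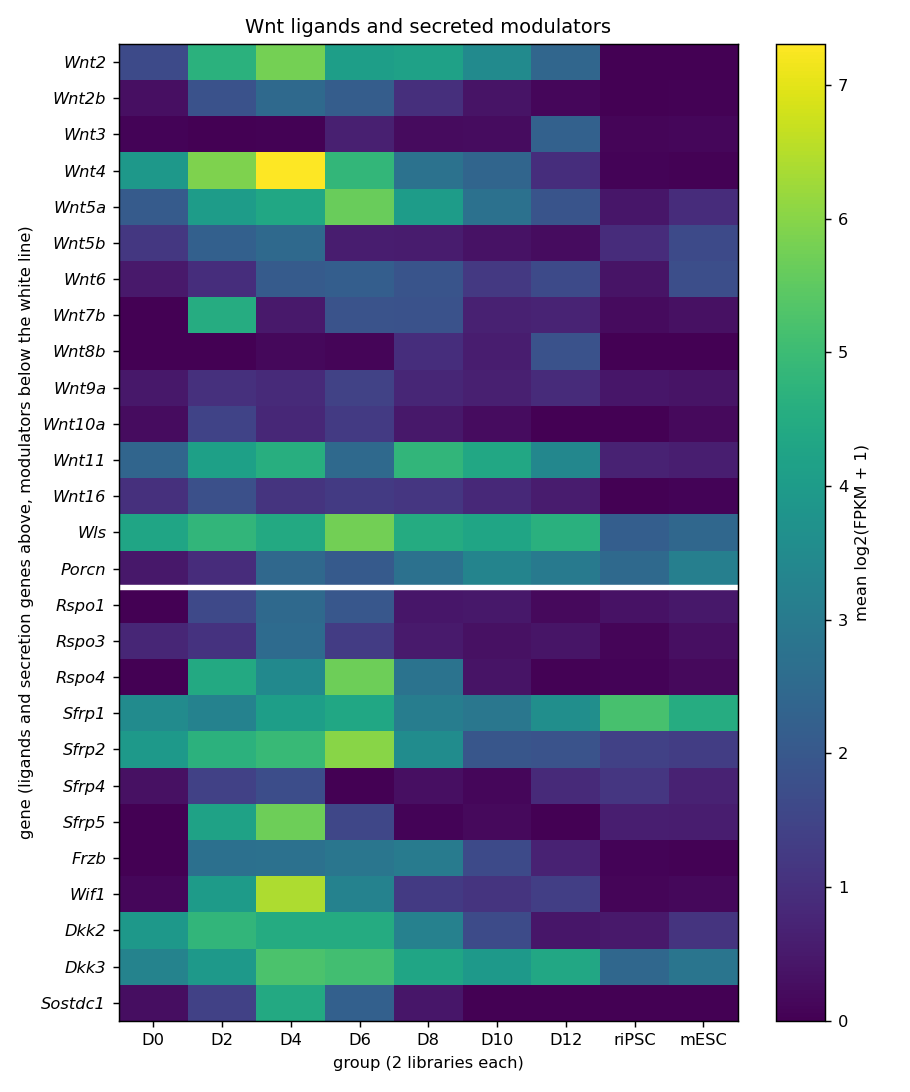
Colour gives the mean log2(FPKM + 1) of 2 libraries for 15 ligands and ligand secretion genes and 12 secreted modulators (rows) in the 9 groups (columns). Wnt4, Wif1 and Sfrp5 are brightest at D4, and Rspo4 and Sfrp2 at D6.

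Of 17 receptors and co-receptors tested, 8 rose and 1 fell in D2 against D0, where 19.5% and 4.63% of all genes did. In D8 against D6, 3 rose and 2 fell, shares near the 15.1% and 11.3% of all genes. Lgr4, an R-spondin receptor related to Lgr5, had 42.4 and 41.1 FPKM in D8, against 2.65 and 2.52 in D6, a rise of 3.58 ± 0.19 on the log2 scale (adjusted p = 1.1e-08 by limma). Lgr5 itself was not called in that step (0.80 ± 0.27, adjusted p = 0.0234). Fzd5 and Fzd10, Wnt receptors, rose in riPSC against D0, to 17.4 and 16.8 FPKM and to 14.3 and 15.1 FPKM; in D0 they were at 0 and 0.440, and at 0 and 0.

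In the destruction complex and nuclear list, 8 of 18 genes rose and 0 fell in D2 against D0, and 12 rose in riPSC against D0, the comparison with the strongest length trend; of all genes, 19.5% and 40.1% were called higher in these comparisons and 4.63% lower in the first. None of the 18 was called in D4 against D2, D6 against D4 or D10 against D8, steps in which members were called. Of all genes, 5.66% were called higher and 4.48% lower at D4, and 11.6% and 6.86% at D6. At D10 the shares were 0.426% and 2.43%. The 0 of 18 at D4 and at D10 was near the background, as was the 0 lower at D6. The difference from the members was not tested. Gsk3b, the kinase that marks beta-catenin, had 35.0 and 31.0 FPKM in D12, against 13.02 and 12.16 in D10, a rise of 1.32 ± 0.24 (adjusted p = 0.00121 by limma). Of 18 other targets and regulators tested, 8 rose and 2 fell in D2 against D0, and 1 rose and 5 fell in D12 against D10. The shares of all genes were 19.5% and 4.63% in the comparison with D0, and 6.01% and 4.68% at D12, so the 1 that rose there was near the background. Apcdd1, a membrane Wnt inhibitor, had 116 and 38.0 FPKM in D2, against 1.40 and 2.25 in D0, and Tnfrsf19 had 59.7 and 31.3, against 0.537 and 0.501. Myc had 1.81 and 2.25 FPKM in D12, against 18.4 and 18.5 in D10, a fall of 2.69 ± 0.21 (adjusted p = 1.18e-06). Cdx2, a target of Wnt in the gut and a trophoblast factor, had 19.3 and 20.9 FPKM in D8, against 0 and 0.179 in D6.

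Likeness of pattern was measured by Pearson correlation of log2(FPKM + 1) over the 18 libraries, among 11822 genes with a group mean of at least 5 FPKM. The points share libraries and depth, and most lie on 1 time course, so these values describe the pattern. Sp5 was among the 3 genes most like Axin2 (r = 0.901), and Notum and Axin2 among the 3 most like Sp5 (r = 0.924 and 0.901). The closest gene to Notum was Pcdhgb6 (r = 0.947), then Notumos (r = 0.941). Tmem158 was closest to Nkd1 (r = 0.983), Ets2 to Sp5 (r = 0.95), Fhdc1 to Rnf43 (r = 0.966) and Ppm1d to Znrf3 (r = 0.971). Between members, r was highest for Notum and Sp5 (0.92) and lowest for Lef1 and Znrf3 (-0.22).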

How the data were processed

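RNA was sequenced on NovaSeq with 150 bp reads, per the labels' protocols. Per the submitters' processing notes, fastp 0.20.1, HISAT2 2.2.1, StringTie 2.0 and the mm10 build were used; the annotation release, the strand setting and the read totals are not given in the sources used here. The authors deposited 1 file of gene values per library. Their unit, FPKM, was read from the values: sums differ between libraries, and value times exonic length rises in even steps among genes of 1 exon. If a step is 1 read, depth was 32.9 to 41.5 M reads in the 16 libraries other than D2; the linked D2 columns give none. Precision therefore comes from the spread between the 2 libraries of a group, pooled over all 9 groups. The SE of a gene is thus the same in every comparison.

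Symbols, coordinates and exonic lengths came from GENCODE M21 (55141 of 55401 identifiers had a symbol). Values were taken as deposited, as log2(FPKM + 1), and a gene entered the test if 2 or more libraries had 1 FPKM or more, which 16439 genes and all 10 members did. The log2 scale understates changes of low genes. A model with a mean for each group was fitted to the 18 libraries in limma 3.58.1 (R 4.3.3), leaving 9 residual degrees of freedom, two-sided, with Benjamini-Hochberg adjustment within each of 11 comparisons. Words of change such as "rose" are used of calls. The procedure was tested on simulated data with independent libraries and the same spread of a gene in all groups. That test does not cover the linked D2 columns or the wider spread of D0, D2 and D4. The members, the lists, the motif and the tests were chosen with earlier results of these data known. From each list, up to 2 called genes per direction and comparison could be named, those with the largest change; other values given are additions. No fold of a single gene is given against a group with both libraries at 0, but the calls and the medians include such genes.

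Alternatives were a pseudocount of 0.1 or 5, a filter of 5 FPKM or none, 3 other scalings, removal of the length trend (lowess, span 0.3), eBayes with a trend, only the libraries compared, the replicate block, no fold threshold, group variance weights and leaving out each replicate. A crossed block and the mean of the D2 columns as 1 sample were added after seeing the data. Promoter windows are from RefSeq (GRCm38.p6). Figures were drawn with matplotlib 3.10.9.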

Additional observations from a re-analysis of the deposited data

How the results depend on the processing

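Of 60 called results of a member in a comparison, 0 changed direction under any alternative and 26 were called under all of them and without each replicate; of 50 uncalled ones, 21 changed sign in some alternative. A pseudocount of 5 ended the most calls: riPSC against D0 had 2 members higher, D12 against D10 had 0 higher and 3 lower, D8 against D6 and D10 against D8 had 0 lower, D2 against riPSC had 5 higher, D12 against riPSC had 1 lower, and riPSC against mESC had 0 lower. A pseudocount of 0.1 gave 0 lower in D4 against D2 and in D10 against D8, 1 lower in riPSC against D0 and 5 higher in D12 against riPSC. With no fold threshold there were 5 higher in D4 against D2, 6 higher and 3 lower in D8 against D6, 1 lower in riPSC against D0 and 5 higher in D12 against riPSC. With no filter, D4 against D2 and D10 against D8 had 0 lower. Scaling changed comparisons with D0 most: in riPSC against D0, 3 were higher and 1 lower by median-of-ratios, 2 higher and 1 lower by quantile normalization, and removing the length trend gave 3 higher and 3 lower. Median-of-ratios and quantile scaling each gave 0 lower in D10 against D8, and leaving out mitochondrial genes gave 0 lower in D4 against D2 and D10 against D8 and 0 higher in D12 against D10. Over all genes, median-of-ratios moved the median log2 fold change from 0.244 to 0.0469 in D2 against D0 and from 0.62 to 0.194 in riPSC against D0, and with it 2438 genes were called higher and 1542 lower in D2 against D0, compared with 3204 and 761. In a fit of only the libraries compared, D2 against D0 had 0 higher and D4 against D2 had 0 higher and 0 lower. With group variance weights, and with the D2 columns as 1 sample, D4 against D2 had 0 lower.

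The replicate numbers did not pair the samples (correlation of deviations -0.227 to 0.154 over the comparisons). With the replicate block, D4 against D2 had 0 lower and no other count of members moved by more than 1.5 times; the crossed block, chosen after seeing the data, gave 3 higher and 1 lower there, 8 lower in D6 against D4 and 7 higher in D6 against D0. Leaving out 1 replicate gave 8 to 10 higher in D2 against D0, 1 to 5 higher and 0 to 1 lower in D4 against D2, 0 to 1 higher in D6 against D4 (1 without D4 replicate 2), 0 to 0 lower in D8 against D6 and in D10 against D8, 5 to 5 lower in D12 against D10, 4 to 6 higher and 0 to 1 lower in riPSC against D0, 7 to 8 higher in D2 against riPSC and 1 to 2 lower in riPSC against mESC. At a filter of 5 FPKM, Znrf3 was not tested. The causes were not tested. With 2 libraries per group, and with linked D2 columns, a difference that was not called is not shown to be absent.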
